A study of Mus musculus with 12 samples.

Results

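Antioxidant and NRF2 target genes were followed in mouse bone marrow macrophages exposed to lipopolysaccharide (LPS), the cell-wall component of Gram-negative bacteria that activates Toll-like receptor 4. The set holds 10 named genes: the regulators Nfe2l2 and Keap1, and the effectors Nqo1, Gclm, Gclc, Srxn1, Txnrd1, Slc7a11, Sod2 and Prdx1. They were found as the array probe sets that the platform annotation gives a single gene symbol, where that symbol is one of the 10. This gave 22 probe sets for 9 genes out of 45101 probe sets on the array, and 21 of them were among the 27931 probe sets bright enough to be tested. The 5 probe sets of Prdx1 also carry the symbol of another gene, so Prdx1 was not analysed here. The untested one was the Keap1 probe set 1450747_at, whose signal lay between 0.7 and 6.5 on the 12 arrays.

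The macrophages came from mice whose IRAK4 is kinase dead (KD) or from wild-type (WT) mice. IRAK4 is the kinase that relays signals from most Toll-like receptors and from the interleukin-1 receptor through the adaptor MyD88. Each strain had unstimulated cultures kept for 4 h, cultures given 1 µg/ml LPS for 1 h and cultures given 1 µg/ml LPS for 4 h, with 2 replicates in each of the 6 groups and 1 array per replicate. The 1 h cultures thus differed from the unstimulated ones in LPS and in time in culture together, and the 1 h and 4 h comparisons of a strain share the same unstimulated arrays. The series calls the replicates biological, but nothing says that they came from separate animals, so p-values measure the spread between these arrays. The array has 0 probe sets with the symbol Irak4, so its signal could not serve as a check of the genotypes.

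NRF2, the product of Nfe2l2, is a transcription factor that binds antioxidant response elements next to a small MAF protein. KEAP1 holds it in the cytoplasm and passes it to a ubiquitin ligase, and oxidants or electrophiles that modify KEAP1 let NRF2 accumulate. Its targets make glutathione, reduce thioredoxin and detoxify quinones. In macrophages exposed to LPS, reactive oxygen from the phagocyte oxidase and from mitochondria meets these systems, and Sod2, the mitochondrial manganese superoxide dismutase, is a well-known NF-κB target as well.

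The arrays were scaled alike, with a mean of 150 after trimming 2% from each end. The median signal was 24.2 to 26.9 on the 6 KD arrays and 18.9 to 22 on the 6 WT arrays. KD no LPS replicate 1 had the highest log2 ratio of 3′ to 5′ control signal. It was 1.35 for Gapdh and 3.04 for beta-actin, against 0.81 to 1.17 and 2.22 to 2.85 on the other arrays. The Spearman correlation of the 2 KD no LPS arrays, 0.879, was the lowest of the 6 groups. That array enters every comparison with unstimulated KD cells. The summed signal of 10 macrophage markers was 18255.2 to 26294.1, which fits the labelled cell type. Markers of T and NK, B, erythroid and mast cells were near background, with sums of at most 99.9. The sum of 5 dendritic cell markers was 162.1 and 182.9 in WT cells at 4 h and 59.2 to 120 on the other arrays. Ccl22, 1 of these markers, had a mean of 85.35 in WT cells at 4 h, against 6.2 without LPS. The neutrophil list summed to 1779.4 to 2494.5 in KD cells and to 814.9 to 980.3 in WT cells, most of it S100a8. The sum of 12 stromal cell markers was 2674.7 and 2377.5 in unstimulated KD cells, against 3468 to 5165.9 on the 6 WT arrays and 3959.4 to 4923.8 on the 4 LPS-treated KD arrays. In bulk RNA, more cells of a type and more RNA per cell cannot be told apart.

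Promoter sequences are shown for 6 genes that were called after LPS and hold a searched motif, so that the letters can be read beside the signals. RefSeq (GRCm38.p6) listed 11 start sites for 9 of the 10 genes, and the 250 bases before each start were searched on both strands. The motifs were the core of the antioxidant response element (TGACNNNGC, ARE), the AP-1 site (TGACTCA), the amino acid response element bound by ATF4 (TGATGCAA) and the kappaB consensus, and one run of letters can match the first and the second at once. Capitals mark the matches in the 5′ to 3′ sequences below.
Nfe2l2, chr2:75704664-75704913, minus strand: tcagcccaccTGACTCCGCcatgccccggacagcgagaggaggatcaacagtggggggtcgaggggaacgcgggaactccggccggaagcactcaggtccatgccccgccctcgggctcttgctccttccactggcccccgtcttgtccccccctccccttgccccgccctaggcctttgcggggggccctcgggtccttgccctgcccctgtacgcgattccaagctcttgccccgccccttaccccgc
Gclm, chr3:122245307-122245556, plus strand: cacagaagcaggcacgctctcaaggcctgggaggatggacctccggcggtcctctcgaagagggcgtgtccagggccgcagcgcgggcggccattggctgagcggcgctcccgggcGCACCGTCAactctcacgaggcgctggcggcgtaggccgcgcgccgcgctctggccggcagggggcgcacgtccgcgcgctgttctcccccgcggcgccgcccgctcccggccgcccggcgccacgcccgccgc
Srxn1, chr2:152105274-152105523, plus strand: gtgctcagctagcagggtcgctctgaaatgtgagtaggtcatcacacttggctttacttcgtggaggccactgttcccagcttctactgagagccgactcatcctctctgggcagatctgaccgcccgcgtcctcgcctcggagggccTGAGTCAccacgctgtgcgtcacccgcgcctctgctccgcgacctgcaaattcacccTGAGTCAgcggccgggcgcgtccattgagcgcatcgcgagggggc
Txnrd1 (the middle of 3 listed starts), chr10:82858956-82859205, plus strand: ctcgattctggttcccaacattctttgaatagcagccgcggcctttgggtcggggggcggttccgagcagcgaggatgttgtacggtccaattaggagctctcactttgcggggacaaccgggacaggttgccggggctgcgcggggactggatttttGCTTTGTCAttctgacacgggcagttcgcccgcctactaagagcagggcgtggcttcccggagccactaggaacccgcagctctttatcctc
Slc7a11, chr3:50443614-50443863, minus strand: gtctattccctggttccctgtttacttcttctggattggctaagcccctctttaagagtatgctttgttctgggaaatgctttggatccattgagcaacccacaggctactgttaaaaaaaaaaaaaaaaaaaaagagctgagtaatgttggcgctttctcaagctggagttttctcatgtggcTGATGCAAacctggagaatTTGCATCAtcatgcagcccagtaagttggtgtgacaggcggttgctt
Sod2, chr17:13007589-13007838, plus strand: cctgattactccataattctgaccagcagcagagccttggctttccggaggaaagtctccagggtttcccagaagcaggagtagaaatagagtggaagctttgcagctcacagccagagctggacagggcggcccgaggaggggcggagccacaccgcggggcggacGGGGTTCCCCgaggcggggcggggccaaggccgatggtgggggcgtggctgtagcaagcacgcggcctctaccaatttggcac
The ARE core stood in 4 of the 11 windows, against 10.2% of 32851 promoters of the same length, and the AP-1 site in 2 of 11, against 4.46%. The amino acid response element stood in 1 of 11, against 0.791%, where it occurs at both positions marked in Slc7a11, and the kappaB consensus in 2 of 11, against 3.9%. The window of Prdx1, which was not analysed, is counted among those with the ARE core, the AP-1 site and the kappaB consensus. The windows of Keap1 and Nqo1 and those of the other 2 Txnrd1 starts held none of these letter runs. The motifs were picked with the results known, and a match describes the sequence only.

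Over the time course the genes fell into different patterns. Sod2, Slc7a11, Txnrd1 and Nfe2l2 had their highest mean after 4 h of LPS in both strains. For Txnrd1 the change from 1 h to 4 h was called in neither strain, and its KD means were 3226.3 and 3286.15. Gclm, Gclc, Srxn1 and Nqo1 had their highest mean at 1 h in both strains. Sod2 was lower in KD than in WT cells at both LPS times, and Txnrd1 at 4 h. No gene's response differed between the strains by the test of that difference.

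**Figure D1:**
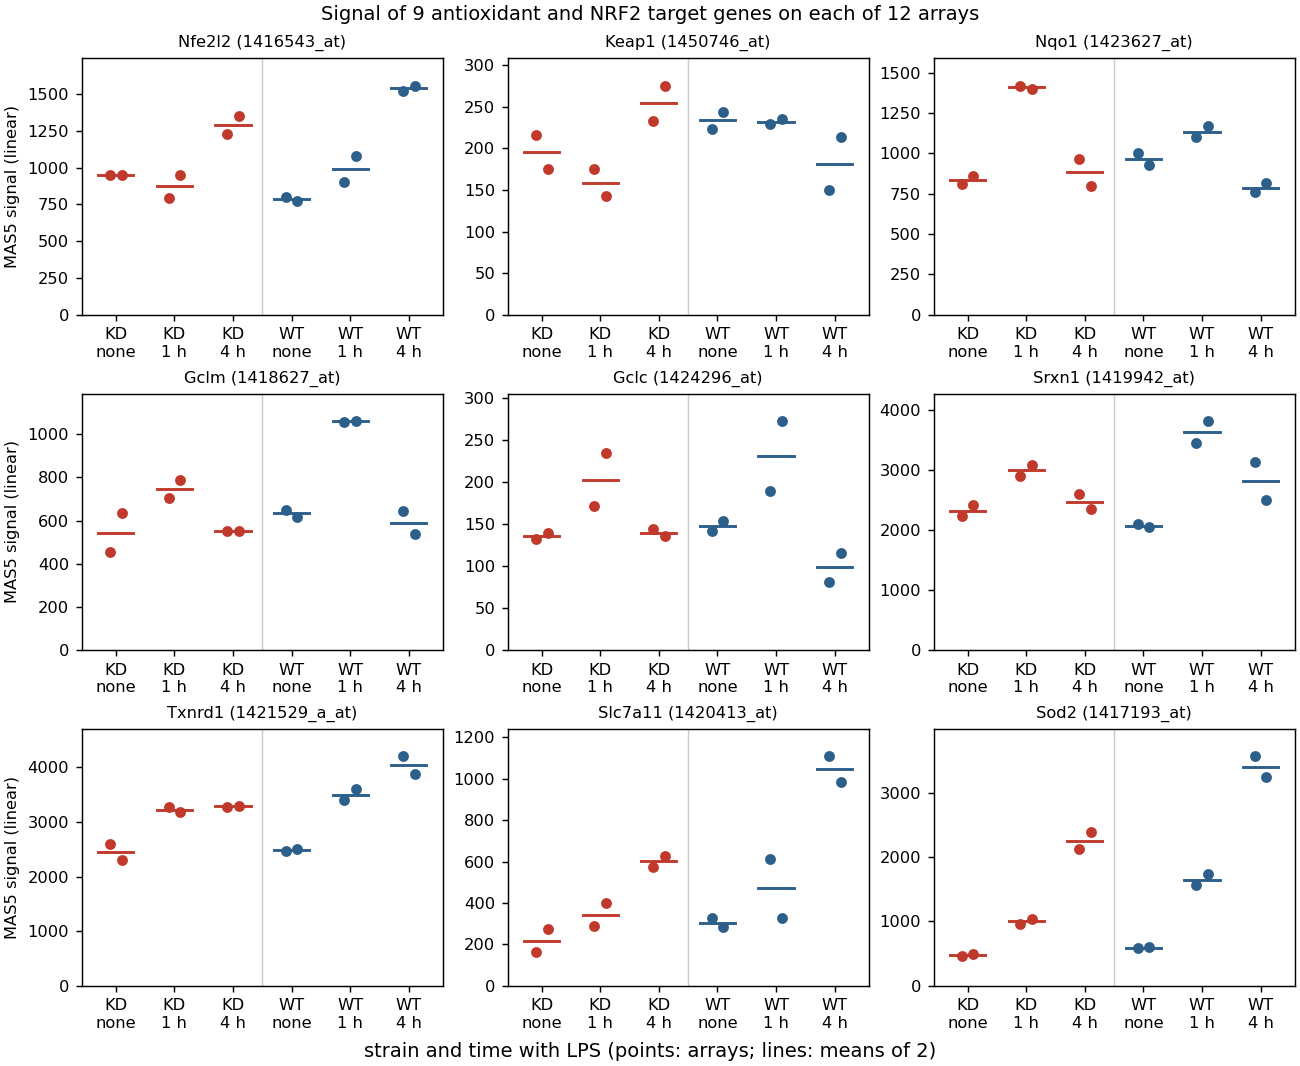
MAS5 signal (linear scale, vertical axis from 0) of the 9 genes on each of the 12 arrays, by strain and time with LPS (KD left, WT right). Points are arrays and lines are the means of 2. Sod2 and Slc7a11 climb with time in both strains, while Gclm, Gclc and Nqo1 peak at 1 h.

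Counts below refer to 1 probe set per gene and to changes of log2(signal + 4.4). It was the brightest tested one without _a_, _s_ or _x_ in its name, where there was one. A gene was called at a Benjamini-Hochberg adjusted p under 0.05 from limma, fitted over all tested probe sets. In KD cells 4 of the 9 genes rose at 1 h (Nqo1, Srxn1, Txnrd1 and Sod2), where 6.58% of all 12914 genes tested were called and 3.62% rose. In WT cells 4 of 9 rose at 1 h (Gclm, Srxn1, Txnrd1 and Sod2), against 7.05% called and 3.21% higher among all genes. At 4 h, 4 of 9 rose in KD cells (Nfe2l2, Txnrd1, Slc7a11 and Sod2), against 12.2% called and 6.19% higher, and 5 of 9 rose in WT cells (the same 4 and Srxn1), against 20.5% and 7.56%. Limma called 0 of the 9 lower than in unstimulated cells at either time in either strain, with Nqo1 and Gclc lower at an unadjusted p under 0.05 in WT cells at 4 h. That Nqo1 change was called with quantile normalization (-0.32, adjusted p = 0.0372) and with a filter at the 75th percentile (adjusted p = 0.0416), and a second probe set of Gclm was called lower in WT cells at 4 h. With a variance prior that does not follow the signal, 2 of 9 passed at 1 h and 1 of 9 at 4 h in KD cells, and 2 of 9 at 1 h in WT cells. The median change of the 9 genes was 0.47 at 1 h and 0.37 at 4 h in KD cells, beside -0.02 and -0.06 over all genes, and 0.56 at 1 h and 0.43 at 4 h in WT cells, beside -0.03 and -0.16.

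**Figure D2:**
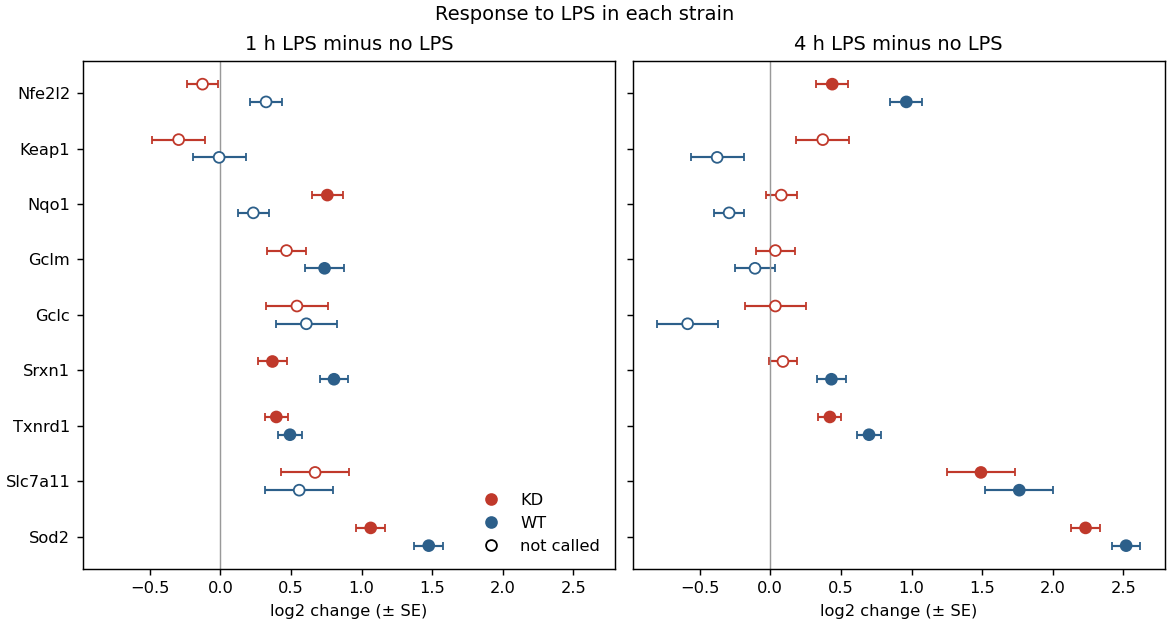
Log2 change with its standard error after 1 h (left) and 4 h (right) of LPS against no LPS, for the 9 genes from top to bottom, with KD (red) above WT (blue). Filled points passed the test. Of the 9 genes, Sod2 has the largest change in each of the 4 comparisons.

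Nfe2l2, which encodes NRF2 itself, had signals of 946.2 and 951.8 without LPS, 795.6 and 948.2 at 1 h and 1226.5 and 1351.9 at 4 h in KD cells. In WT cells it had 802.1 and 772 without LPS, 900 and 1079.1 at 1 h and 1521 and 1556.1 at 4 h. Both 4 h arrays of each strain lay above every earlier array of that strain, and the KD arrays at 1 h and without LPS overlapped. The 4 h change was 0.44 ± 0.11 (log2, SE) in KD cells, adjusted p = 0.0158, and 0.96 ± 0.11 in WT cells, adjusted p = 3.48e-06. Without KD no LPS replicate 1, KD no LPS replicate 2 or KD 4 h replicate 2, the KD change was 0.43, 0.44 and 0.37 and its adjusted p 0.0581, 0.0617 and 0.152. The difference between these 2 responses was -0.52 (95% interval -0.86 to -0.19), with an adjusted p of 0.0874 that became 0.0490 with a filter at the 75th percentile of each array and 0.0486 in a fit of only the arrays compared. A second, dim probe set, 1457117_at, with 33.9 to 182.1, was called in no comparison. Its means were higher at 1 h than at 4 h in KD cells (73.65 and 57) and in WT cells (135.9 and 103.15). The Nfe2l2 window printed above holds an ARE core 240 to 232 bases before the start.

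Keap1, the NRF2 inhibitor, had 216.6 and 175.6 without LPS, 175.2 and 142.5 at 1 h and 233.4 and 275.6 at 4 h in KD cells. Its WT signals were 224 and 244.1 without LPS, 229.1 and 235.5 at 1 h and 150.1 and 213.6 at 4 h. The KD arrays were highest at 4 h and the WT arrays lowest at 4 h, and at that time the KD arrays lay above the WT arrays. Neither strain's 4 h change against no LPS passed the test (0.37 ± 0.19 in KD cells, adjusted p = 0.267, and -0.38 ± 0.19 in WT cells, adjusted p = 0.205). From 1 h to 4 h Keap1 rose in KD cells by 0.67 ± 0.19, adjusted p = 0.0316. This call was lost without KD 1 h replicate 2 (0.52, adjusted p = 0.246), KD 4 h replicate 1 (0.79, 0.0705) or KD 4 h replicate 2 (0.55, 0.224). The difference between the strains' 4 h responses was 0.75 (95% interval 0.19 to 1.31), adjusted p = 0.156.

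Gclm and Gclc encode the modifier and the catalytic subunit of glutamate-cysteine ligase, the rate-limiting enzyme of glutathione synthesis. Gclm had 455.7 and 632.8 without LPS, 704.7 and 786.1 at 1 h and 551.4 and 550 at 4 h in KD cells. WT cells gave 648.3 and 617.8 without LPS, 1055.8 and 1059.9 at 1 h and 642.2 and 536.1 at 4 h. The 1 h arrays stood above all others of their strain, and on this probe set the 4 h arrays overlapped the unstimulated ones. Gclm rose at 1 h in WT cells by 0.74 ± 0.14, adjusted p = 0.00244, and fell from 1 h to 4 h by 0.85, adjusted p = 0.000216. In KD cells the 1 h change was 0.47 ± 0.14, adjusted p = 0.0567, and without KD no LPS replicate 2 it was 0.70, adjusted p = 0.00716. The second Gclm probe set, 1439050_at, was 794.3 and 681.8 at 1 h in KD cells, against 396.8 and 467.4 without LPS, and passed the test there with a change of 0.77, adjusted p = 0.00485. At 4 h in WT cells the same probe set was at 398.1 and 518.6, against 647.4 and 640.4 without LPS, and was called lower (-0.50, adjusted p = 0.0323). The motif shown for Gclm is an ARE core 134 to 126 bases before the start.

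Gclc had 133 and 140.1 without LPS, 171.7 and 234.4 at 1 h and 144.3 and 135.9 at 4 h in KD cells. The WT signals were 142.2 and 154.1 without LPS, 190.2 and 273 at 1 h and 81.1 and 116.3 at 4 h. In WT cells all 3 conditions were separate, highest at 1 h and lowest at 4 h. The WT fall from 1 h to 4 h passed the test at -1.19 ± 0.22, adjusted p = 0.000632, and also on the second probe set, 1455959_s_at (-0.64, adjusted p = 0.0149). The 1 h changes were 0.54 ± 0.22 in KD cells, adjusted p = 0.185, and 0.61 ± 0.22 in WT cells, adjusted p = 0.118. At 4 h the WT change against no LPS was -0.59 ± 0.22, adjusted p = 0.0758, which became 0.0496 with the replicate number as a block. Without WT 4 h replicate 2, the higher WT array at 4 h, the change was -0.83. The probe set 1455959_s_at had 199 and 233.5 in WT cells at 4 h, against 295 and 237.1 without LPS, and was not called there.

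Slc7a11 encodes xCT, the light chain of the antiporter that brings in cystine for glutathione synthesis in exchange for glutamate. Its KD signals were 162.7 and 273.2 without LPS, 287.9 and 397.4 at 1 h and 575.8 and 627.8 at 4 h. The WT signals were 327.4 and 282.8 without LPS, 613.9 and 329.5 at 1 h and 1108 and 982.6 at 4 h. In both strains the 4 h arrays stood clear of all earlier ones, and the replicates at 1 h in WT cells were far apart. Slc7a11 rose at 4 h by 1.49 ± 0.24 in KD cells, adjusted p = 0.000304, and by 1.76 ± 0.24 in WT cells, adjusted p = 2.33e-05. The 1 h changes of 0.67 ± 0.24 in KD cells and 0.56 ± 0.24 in WT cells had adjusted p-values of 0.129 and 0.211. They were 1.04 without KD no LPS replicate 2 and 1.00 without WT 1 h replicate 2. The first is the higher KD array without LPS and the second the lower WT array at 1 h, so each omission widened the change. The other probe set, 1443536_at, had 117.6 and 143.9 in KD cells at 4 h, against 40.9 and 41.3 without LPS. In WT cells it had 322.4 and 280.3 at 4 h, against 46.8 and 40.6. At 1 h this probe set had 54 and 48 in KD cells and 79.8 and 32.8 in WT cells. The Slc7a11 promoter is the one with an amino acid response element on each strand.

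Txnrd1 encodes cytosolic thioredoxin reductase, which keeps thioredoxin reduced with NADPH. It had 2604.3 and 2307.7 without LPS, 3269.5 and 3183.1 at 1 h and 3278 and 3294.3 at 4 h in KD cells. Its WT signals were 2472.6 and 2502.8 without LPS, 3408.6 and 3596.2 at 1 h and 4201.2 and 3888 at 4 h. Every LPS array was above every unstimulated one, and WT cells at 4 h were highest. Txnrd1 rose at 1 h by 0.40 ± 0.08 in KD cells, adjusted p = 0.00562, and by 0.49 ± 0.08 in WT cells, adjusted p = 0.000726. At 4 h the changes were 0.42 ± 0.08 in KD cells, adjusted p = 0.00179, and 0.70 ± 0.08 in WT cells, adjusted p = 3.53e-06. The KD call at 1 h was lost without KD no LPS replicate 2 (0.31, adjusted p = 0.0645) or KD 1 h replicate 1 (0.38, 0.0666). The dimmer probe sets 1424486_a_at and 1424487_x_at gave larger changes in each of these 4 comparisons, of 0.90 to 1.59, and all were called. In KD cells their means were higher at 1 h (256.25 and 124.35) than at 4 h (228.65 and 111.05). From 1 h to 4 h Txnrd1 was called in neither strain, except in WT cells with quantile normalization (0.23, adjusted p = 0.0249).

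Srxn1 encodes sulfiredoxin, which repairs over-oxidised peroxiredoxins such as the product of Prdx1. It had 2233.7 and 2411 without LPS, 2901.9 and 3093.4 at 1 h and 2595.9 and 2349.3 at 4 h in KD cells. In WT cells the signals were 2097 and 2056.5 without LPS, 3449.9 and 3817.5 at 1 h and 3136 and 2508.2 at 4 h. The 1 h arrays were highest in each strain, and in KD cells the 4 h arrays overlapped the unstimulated ones. Srxn1 rose at 1 h in WT cells by 0.80 ± 0.10, adjusted p = 3.64e-05, and was still up by 0.43 ± 0.10 at 4 h, adjusted p = 0.00474. In KD cells the 1 h change was 0.37 ± 0.10, adjusted p = 0.0374, and this call was lost on leaving out any 1 of 6 arrays. They were both KD no LPS arrays (changes of 0.31 and 0.42), both KD 1 h arrays (0.41 and 0.32) and both WT no LPS arrays (0.37 each), with adjusted p-values of 0.0536 to 0.235. The WT call at 4 h was lost without WT 4 h replicate 1 (0.27, adjusted p = 0.145). Of the other 3 probe sets, 1426875_s_at and 1451680_at also passed at 1 h in both strains, with changes of 0.49 to 1.14, and the dim 1425351_at did not. On the bright 1426875_s_at the WT change at 4 h (0.26, adjusted p = 0.0897) and the WT change from 1 h to 4 h (-0.25, adjusted p = 0.117) were not called.

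Nqo1 encodes NAD(P)H quinone dehydrogenase 1, a classical NRF2 target that reduces quinones. Its signals in KD cells were 808 and 858.5 without LPS, 1420.1 and 1400.5 at 1 h and 966.7 and 799.6 at 4 h. The WT signals were 1004.5 and 927.8 without LPS, 1101.4 and 1169.6 at 1 h and 759.6 and 817.2 at 4 h. The KD arrays at 1 h were higher than all other arrays, and the WT arrays at 4 h lay below the other WT arrays. Nqo1 rose at 1 h in KD cells by 0.76 ± 0.11, adjusted p = 0.000184, and fell from 1 h to 4 h by 0.68, adjusted p = 0.000368. In WT cells the 1 h change was 0.23 ± 0.11, adjusted p = 0.256, and the fall from 1 h to 4 h was called at -0.52 ± 0.11, adjusted p = 0.00201. The difference between the 1 h responses was 0.52 (95% interval 0.20 to 0.85), adjusted p = 0.166, so the KD call and the missing WT call were not shown to differ. Between the same KD groups the summed stromal markers were 4923.8 and 3959.4 at 1 h, against 2674.7 and 2377.5 without LPS, and 6 of 11 tested rose; their part in the Nqo1 change was not tested.

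Sod2 showed the largest response. It had 464.1 and 489 without LPS, 965.6 and 1037.1 at 1 h and 2125.8 and 2392.1 at 4 h in KD cells. In WT cells it had 579.6 and 599.7 without LPS, 1561.7 and 1736.3 at 1 h and 3569.5 and 3242.7 at 4 h. The conditions did not overlap within either strain, and at each time both KD arrays lay below both WT arrays. Sod2 rose at 1 h by 1.06 ± 0.10 in KD cells, adjusted p = 1.1e-06, and by 1.47 ± 0.10 in WT cells, adjusted p = 8.33e-09. At 4 h it was up by 2.23 ± 0.10 in KD cells, adjusted p = 9.8e-12, and by 2.52 ± 0.10 in WT cells, adjusted p = 8.79e-13. As folds on this scale the 4 h changes were 4.70 in KD cells and 5.74 in WT cells. These calls held with each array left out in turn. The dimmest probe set, 1417194_at, was called at 4 h in both strains but not at 1 h. Its 1 h change was 0.66 in KD cells (adjusted p = 0.272) and 0.63 in WT cells (adjusted p = 0.284). The Sod2 window printed above holds a kappaB match that reads on both strands, 83 to 74 bases before the start.

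**Figure D3:**
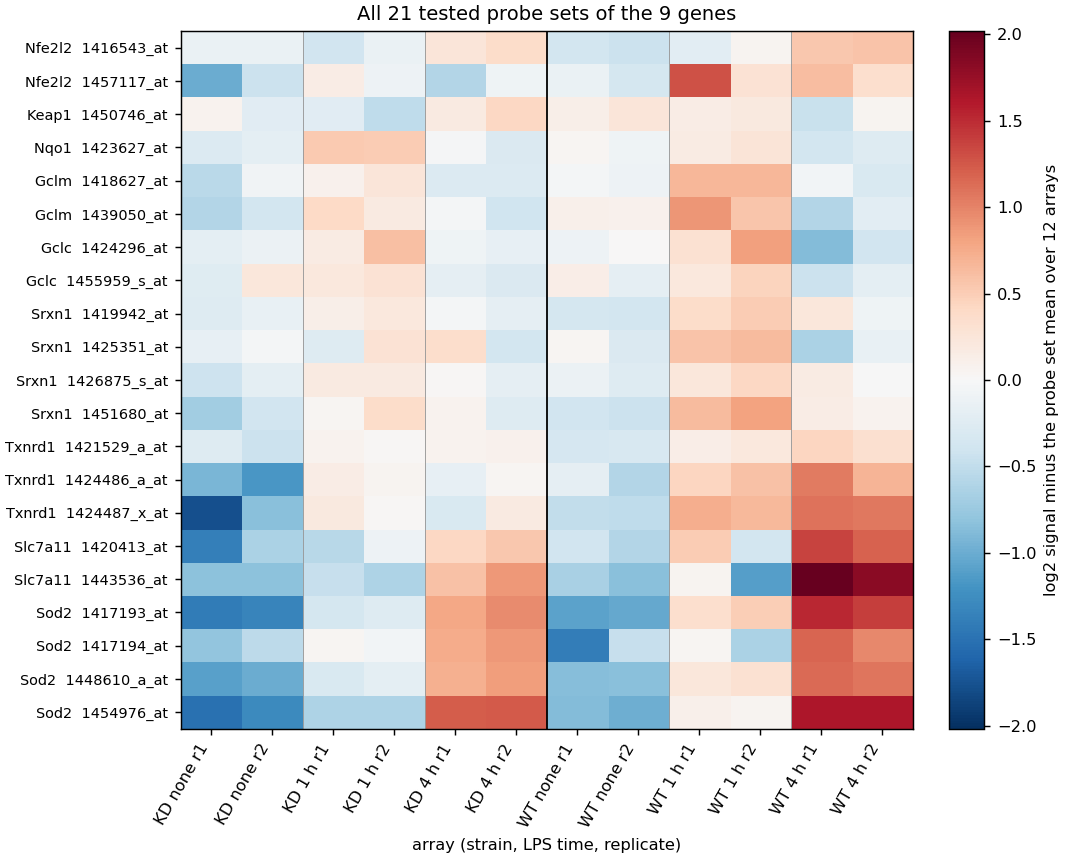
All 21 tested probe sets of the 9 genes (rows) on the 12 arrays (columns, KD left and WT right), coloured by log2(signal + 4.4) minus the mean of the probe set over the 12 arrays. The 4 Sod2 rows and the 2 Slc7a11 rows are reddest in the WT 4 h columns.

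Between 1 h and 4 h of LPS the genes moved in opposite directions. In KD cells 4 of the 9 genes rose over this interval (Nfe2l2, Keap1, Slc7a11 and Sod2) and 1 fell (Nqo1), where 5.65% of all genes rose and 4.82% fell. In WT cells 3 rose (Nfe2l2, Slc7a11 and Sod2) and 4 fell (Nqo1, Gclm, Gclc and Srxn1), against 7.81% and 11.1% of all genes. In either direction 10.5% of all genes were called in KD cells and 18.9% in WT cells. Of 11 tested stromal markers 5 fell over the same interval in WT cells, with sums of 3837.1 and 3468 at 4 h, against 5165.9 and 5129.4 at 1 h, and 1 fell in KD cells; their part in the changes of the 9 genes was not tested. The median change of the 9 genes was 0.03 in KD cells and -0.37 in WT cells, beside -0.05 and -0.12 over all genes. The KD rises of Nfe2l2 (0.57 ± 0.11, adjusted p = 0.00281) and Slc7a11 (0.82 ± 0.24, 0.0393) depended on single arrays. Nfe2l2 lost its call without KD 1 h replicate 1 (0.44, adjusted p = 0.0659) or KD 4 h replicate 2 (0.50, 0.0519). Slc7a11 lost it without KD 1 h replicate 1 (0.59), either KD 4 h array (0.88 and 0.76), WT no LPS replicate 1 or either WT 4 h array (0.82 each), with adjusted p-values of 0.0508 to 0.307. In WT cells Srxn1 lost its call without WT 1 h replicate 2 (-0.30, adjusted p = 0.148) or WT 4 h replicate 2 (-0.21, 0.277), and Slc7a11 without WT 1 h replicate 2 (0.76, 0.0527). KD cells' Gclm change over the interval, -0.43 ± 0.14 with an adjusted p of 0.0630, passed when either KD no LPS array was left out (0.0214 and 0.0222).

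The strains were also compared with each other at each time. Anything else that differs between the strains or their cultures cannot be told apart from the kinase activity of IRAK4. Without LPS, 0 of the 9 genes were called by limma, with 3 at an unadjusted p under 0.05 (Nfe2l2, Slc7a11 and Sod2), where 5.68% of all genes were called. At 1 h, 1 of 9 was lower in KD cells (Sod2), against 1.52% called and 0.782% lower among all genes. At 4 h, 2 of 9 were lower in KD cells (Txnrd1 and Sod2), against 6.7% and 2.46%. The median difference of the 9 genes, KD minus WT, was -0.21 without LPS, -0.28 at 1 h and -0.18 at 4 h, beside 0.03, 0.04 and 0.11 over all genes. The neutrophil marker sum, most of it S100a8, was higher on every KD array than on every WT array, as given above. Of 3 tested neutrophil markers only S100a8 was called. Camp had lower means in KD than in WT cells without LPS (23.2 and 38.2), at 1 h (33.5 and 55.95) and at 4 h (57.95 and 73.95). Of 11 tested stromal markers, 5 were lower in KD cells without LPS, 3 were lower and 1 higher at 1 h, and 1 was lower and 2 higher at 4 h. Of 10 macrophage markers, Csf1r, Cd14 and Lyz2 were higher in KD cells without LPS (0.40 to 0.50) and Itgam at 4 h (adjusted p = 0.0223). The part of these markers in the differences was not tested.

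Sod2 differed by -0.72 ± 0.10 at 1 h, adjusted p = 0.000866, and by -0.59 ± 0.10 at 4 h, adjusted p = 0.00135. On this scale the KD level was 0.61 of the WT level at 1 h and 0.66 at 4 h. Both calls held with each array left out in turn, and were lost with a variance prior that does not follow the signal (adjusted p = 0.115 and 0.0708). Its difference without LPS was -0.30 ± 0.10, adjusted p = 0.0934. The bright probe sets 1448610_a_at and 1454976_at were also called lower in KD cells at both LPS times, with differences of -0.71 to -0.33. The probe set 1454976_at, at 406.6 and 472.3 in KD cells and 631.3 and 582.1 in WT cells, was called without LPS too (-0.46, adjusted p = 0.00898). The dimmest one, 1417194_at, was at 72 and 66.9 in KD cells and 71.7 and 43.2 in WT cells at 1 h. Its difference of 0.29 there had the opposite sign and was not called. At 4 h its difference was -0.26, adjusted p = 0.719.

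Txnrd1 differed by -0.30 ± 0.08 at 4 h, adjusted p = 0.0383. KD cells had 3278 and 3294.3, below the 4201.2 and 3888 of WT cells. The call was lost in 8 of the 12 fits with 1 array left out, namely on leaving out either array of the KD 1 h, KD 4 h, WT no LPS or WT 4 h group, with differences of -0.35 to -0.24 and adjusted p-values of 0.0545 to 0.311. Without LPS this probe set gave no call (-0.02 ± 0.08, adjusted p = 0.933), while 1424486_a_at, at 123.9 and 102.7 in KD cells and 208.2 and 156.4 in WT cells, was called lower (-0.66, adjusted p = 0.0378). The other probe sets gave larger differences at 4 h. For 1424486_a_at, KD cells had 211.9 and 245.4 and WT cells 497.5 and 383.2 (-0.92, adjusted p = 0.00387), and for 1424487_x_at KD cells had 91.9 and 130.2 and WT cells 250.7 and 245.4 (-1.15, adjusted p = 0.0109).

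Slc7a11 was at 575.8 and 627.8 in KD cells and 1108 and 982.6 in WT cells at 4 h, which are groups that do not overlap, and its difference was -0.79 ± 0.24 with an adjusted p of 0.0646. Its adjusted p was 0.0244 to 0.0350 when any of the KD no LPS or WT 1 h arrays was left out. The second probe set, 1443536_at, was called at -1.18 ± 0.30, adjusted p = 0.0269. Gclm at 1 h differed by -0.50 ± 0.14, adjusted p = 0.0936, and passed without either KD no LPS array (0.0336 and 0.0346). Its second probe set, 1439050_at, was at 396.8 and 467.4 in KD cells and 647.4 and 640.4 in WT cells without LPS and was called lower there (-0.58, adjusted p = 0.0368).

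**Figure D4:**
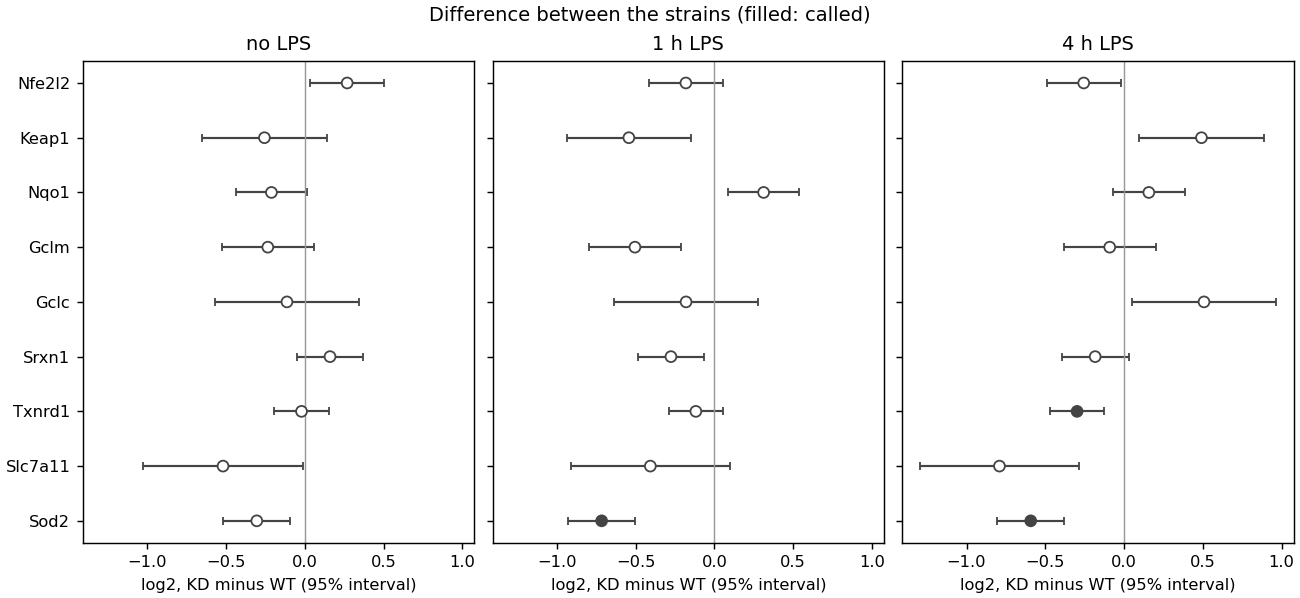
Log2 difference, KD minus WT, with its 95% interval for the 9 genes without LPS (left), at 1 h (middle) and at 4 h (right). Filled points passed the test: Sod2 at 1 h and 4 h and Txnrd1 at 4 h, all lower in KD cells.

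The test of whether the LPS response itself differed between the strains called 0 of the 9 genes with limma at 1 h and 0 at 4 h, with 4 and 5 at an unadjusted p under 0.05. Over all genes 0.418% were called at 1 h and 3.85% at 4 h. For Sod2 the KD response minus the WT response was -0.41 (95% interval -0.71 to -0.11) at 1 h, adjusted p = 0.261, and -0.29 (-0.59 to 0.01) at 4 h, adjusted p = 0.353. For Srxn1 it was -0.44 (-0.74 to -0.14) at 1 h, adjusted p = 0.227. For Slc7a11 it was -0.27 (-0.99 to 0.44) at 4 h, adjusted p = 0.783, an interval that holds changes in both directions.

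Levels of the 9 genes over the 6 groups were also set against all other genes. For the 3 genes with the widest range of group means, the 3 genes of most similar profile were taken by the root mean square difference of the 6 group means on the log2 scale, each centred on its own mean. Sod2, with a range of 2.82, was nearest to Clec4e (0.10), which encodes the receptor Mincle, then to Bcl3 (0.16), an NF-κB co-regulator, and Ralgds (0.16). Slc7a11, with a range of 2.28, was nearest to Trim30d (0.10), Arhgap35 (0.12) and Mapkapk2 (0.12), the kinase MK2. Gclc, with a range of 1.19, was nearest to Txndc11, Bcat2 and Zcchc24 (0.07 each). Some of these genes were dim on part of the arrays: Bcat2 had 12.1 to 60.4, Mapkapk2 21.3 to 158.1 and Arhgap35 26.4 to 212.4. The lowest signals of the others were 37.4 to 855.3. Whether genes of similar profile share regulation was not tested.

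The partners and regulators of NRF2 moved as follows. Of 12 tested genes of this list, 1 rose at 1 h and 2 at 4 h in KD cells, and 2 rose at 1 h and 5 rose and 1 fell at 4 h in WT cells. The shares over all genes printed above were 3.62% and 6.19% higher in KD cells and 3.21% and 7.56% higher in WT cells. Most calls of list genes depend on the variance prior: of 146 over the 5 lists and 11 comparisons, 56 were called with a prior that does not follow the signal. The medians were 0.15 and 0.08 in KD cells and 0.15 and 0.17 in WT cells. Sqstm1, which encodes p62, an adaptor that takes KEAP1 to autophagy, had 221.5 and 201.9 without LPS, 1084.8 and 855.2 at 1 h and 533.8 and 749.9 at 4 h in KD cells. WT signals were 375 and 406.1, 1302.1 and 1360.8, and 1760.2 and 1611.4 at the same times. It thus rose at both times in both strains, and KD arrays lay below WT arrays at each time. Its KD level was lower without LPS (-0.87, adjusted p = 0.00161) and at 4 h (-1.41, adjusted p = 6.85e-06). The probe set 1450957_a_at gave -0.04 without LPS, which was not called, and -0.41 at 4 h, adjusted p = 0.0163, and it rose in KD cells from 1 h to 4 h (0.54, adjusted p = 0.0012) where the other fell (-0.60, adjusted p = 0.0127). Sqstm1's fall in KD cells from 1 h to 4 h was lost without KD 1 h replicate 1 or KD 4 h replicate 1.

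Bach1, which encodes the repressor that competes with NRF2 at these elements, had 2692.4 and 2382.7 without LPS, 2955.8 and 2988.2 at 1 h and 2456.7 and 2040.7 at 4 h in KD cells. In WT cells it had 2870 and 2706.9, 2717.5 and 2470.6, and 1285.8 and 1538.4 at those times. The WT arrays at 4 h stood below all others. Bach1 fell at 4 h in WT cells (-0.98, adjusted p = 1.22e-06) and was higher in KD than in WT cells at that time (0.67, adjusted p = 0.000684). Maff, a small MAF partner, had 94.7 and 42.7 without LPS, 99 and 127.6 at 1 h and 115.9 and 127.1 at 4 h in KD cells, and 40.9 and 34.3, 156 and 279.5, and 223.4 and 241.7 in WT cells. It rose in WT cells at 1 h (2.35, adjusted p = 4.88e-05) and 4 h (2.5, adjusted p = 5.5e-06). Mafg (0.62, adjusted p = 0.00248) and Cul3 (0.37, adjusted p = 0.00813), the scaffold of the KEAP1 ligase, also rose at 4 h in WT cells, Cul3 with a call lost without either WT no LPS array or WT 4 h replicate 1. Nfe2l1, the relative NRF1, rose at 4 h in KD cells (0.70, adjusted p = 0.000151) and WT cells (0.60, adjusted p = 0.000423).

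**Figure D5:**
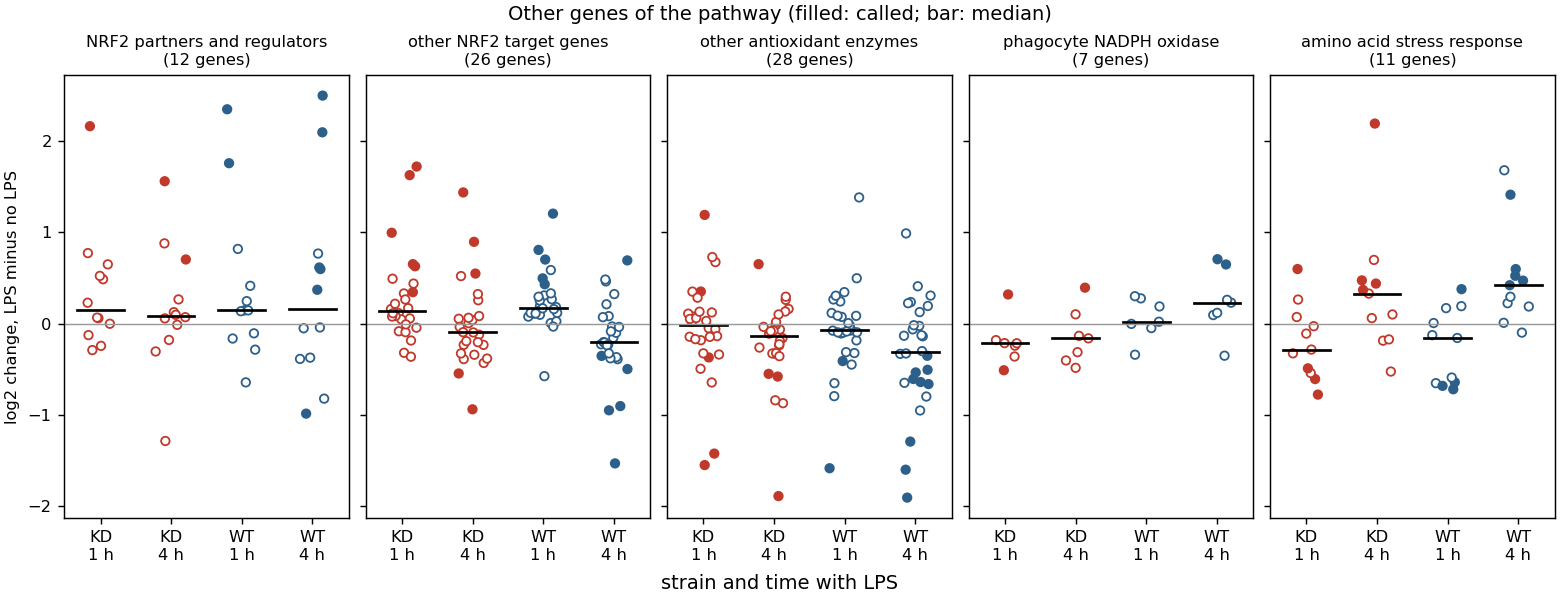
Log2 change against no LPS of each tested gene of the 5 pathway lists, at 1 h and 4 h in KD (red) and WT (blue) cells. Filled points passed the test and bars are list medians. Other NRF2 target genes have medians above 0 at 1 h and below 0 at 4 h in both strains. The medians over all genes at 4 h were -0.06 in KD and -0.16 in WT cells.

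Among other NRF2 target genes the calls at 1 h were all upward. Of 26 tested, 6 rose and 0 fell at 1 h in KD cells, and 5 rose and 0 fell in WT cells. Of all genes 3.62% rose and 2.97% fell at 1 h in KD cells, and 3.21% rose and 3.84% fell in WT cells. At 4 h, 3 rose and 2 fell in KD cells, and 1 rose and 5 fell in WT cells. Of all genes 6.19% rose and 6.02% fell in KD cells at 4 h, and 7.56% rose and 12.9% fell in WT cells. From 1 h to 4 h, 0 rose and 4 fell in KD cells, and 0 rose and 12 fell in WT cells, where 4.82% of all genes fell in KD cells and 11.1% in WT cells. The stromal markers fell over the same WT interval, 5 of 11 by the test, and their part was not tested. The medians at 1 h were 0.14 in KD cells and 0.18 in WT cells, beside -0.02 and -0.03 over all genes. At 4 h they were -0.09 in KD cells and -0.20 in WT cells, beside -0.06 and -0.16.

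Hmox1, which encodes heme oxygenase 1, had 1775.5 and 1972.1 without LPS, 2358 and 2401.5 at 1 h and 2092.4 and 1804.6 at 4 h in KD cells. The corresponding WT values were 2453.8 and 2250.8, 3242.3 and 3398.7, and 1978.3 and 2252.6. It peaked at 1 h in both strains, and the KD arrays at 1 h lay below the WT arrays. The 1 h rise was 0.35 in KD cells (adjusted p = 0.0417) and 0.50 in WT cells (adjusted p = 0.00328), and the KD level at 1 h was lower by -0.48 (adjusted p = 0.0166). The KD rise was lost without KD no LPS replicate 1, either KD 1 h array or either WT no LPS array, the WT rise without WT no LPS replicate 2, and the strain difference without any of the 4 arrays at 1 h.

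Among the largest 1 h changes, the glutathione transferase Gsta4 rose by 1.63 in KD cells and 0.81 in WT cells, aldehyde oxidase Aox1 by 1.72 and 1.21, and the exporter Abcc1 by 0.65 and 0.70. The exporter Abcc4 rose in KD cells by 1.00, and Gstp1 by 0.63 in KD cells and 0.43 in WT cells. Gsta4 was at 216.8 and 171.2 in KD cells and 369 and 359.4 in WT cells without LPS, a difference of -0.90 (adjusted p = 0.00121), and the stromal markers were also lower in KD cells there, 5 of 11 by the test; their part was not tested. Calls of Aox1 in WT cells were lost without WT no LPS replicate 2 or either WT 1 h array, those of Abcc4 without KD no LPS replicate 2 or KD 1 h replicate 1, and that of Gstp1 without KD 1 h replicate 1 in KD cells and in 8 of 12 fits in WT cells. At 4 h in WT cells the E3 ligase Trim16 (-1.53), Osgin1 (-0.95) and the carbonyl reductase Cbr3 (-0.90) fell in every fit. Gstm1, a glutathione transferase, was lower in KD cells without LPS (-0.49), at 1 h (-0.60) and at 4 h (-0.53), with adjusted p-values of 0.00287 to 0.00628; the first was lost without WT no LPS replicate 2. Mgst1 was lower without LPS (-0.44, adjusted p = 0.0169), a call lost without either KD no LPS array or WT no LPS replicate 1. At 4 h Abcc1 was lower in KD cells (-0.46, adjusted p = 0.0223), and Cbr3 (0.73, adjusted p = 0.0132) and Trim16 (1.11, adjusted p = 0.0237) were higher; the first 2 of these calls were lost without any of the 4 arrays at 4 h and the last without either KD 4 h array or WT 4 h replicate 1.

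Other antioxidant enzymes were counted next. Of 28 tested, 2 rose and 3 fell at 1 h in KD cells, where 3.62% of all genes rose and 2.97% fell. In WT cells 0 rose and 2 fell at 1 h, against 3.21% and 3.84% of all genes. At 4 h, 1 rose and 3 fell in KD cells, and 0 rose and 9 fell in WT cells, with medians of -0.13 in KD cells and -0.31 in WT cells. Over all genes 6.19% rose and 6.02% fell in KD cells and 7.56% rose and 12.9% fell in WT cells at 4 h, with medians of -0.06 and -0.16. Txnip, which encodes the thioredoxin-interacting protein that inhibits thioredoxin, had 3747.3 and 2720.9 without LPS, 1235.8 and 1143.1 at 1 h and 2307 and 2062.4 at 4 h in KD cells. In WT cells it had 3555.2 and 3390, 1145.4 and 1166.7, and 1305.8 and 1536.3. It fell at 1 h by 1.42 in KD cells (adjusted p = 2.7e-07) and 1.58 in WT cells (adjusted p = 5.36e-08), and the KD arrays at 4 h had come back above the WT arrays (0.62, adjusted p = 0.00445). That difference was lost without KD 4 h replicate 1 or WT 4 h replicate 1. Sesn1, a sestrin, fell at 4 h by 1.89 in KD cells and 1.90 in WT cells, and the methionine sulfoxide reductases Msrb1 (-0.66) and Msrb2 (-1.60) fell at 4 h in WT cells. Msrb2 was higher in KD cells at 4 h (1.08, adjusted p = 0.0273), and so was Prdx2 (0.39, adjusted p = 0.0293), each with a call lost without any of the 4 arrays at 4 h. Gpx8, a peroxidase of the endoplasmic reticulum, rose in KD cells by 1.19 at 1 h and 0.65 at 4 h, and was at 223 and 175 without LPS there, beside the low stromal marker sum given above, whose part was not tested. Its 4 h call was lost without KD no LPS replicate 2 or KD 4 h replicate 2. The metallothionein gene Mt2 was lower in KD cells without LPS (-0.71), at 1 h (-0.89) and at 4 h (-0.89), the first of which was lost without WT no LPS replicate 1. Without LPS, catalase (Cat) was lower in KD cells (-0.47, adjusted p = 0.00557), a call lost without KD no LPS replicate 2 or WT no LPS replicate 1, and Gpx1 was higher (0.38, adjusted p = 0.0496), a call that held in 4 of 12 fits with 1 array left out.

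Genes of the phagocyte NADPH oxidase, which makes superoxide, were counted as a further list. Of 7 tested, 1 rose and 1 fell at 1 h in KD cells, and 1 rose at 4 h. In KD cells 3.62% of all genes rose and 2.97% fell at 1 h, and 6.19% rose at 4 h. In WT cells 2 rose at 4 h, against 7.56% of all genes. Cybb, the catalytic subunit, had 2926.7 and 3136.8 without LPS, 3849.3 and 3724.5 at 1 h and 3816.7 and 4163.3 at 4 h in KD cells. WT arrays read 2705.4 and 2598.7, 2981.9 and 3068.2, and 4388.9 and 3946.4. At 4 h it rose by 0.40 in KD cells (adjusted p = 0.00307) and 0.65 in WT cells (adjusted p = 8.63e-06), and Ncf1 rose in WT cells by 0.71 (adjusted p = 0.000196). The KD call of Cybb was lost without KD 4 h replicate 2. Without LPS 3 of 7 were higher in KD cells, where 2.41% of all genes were, with Cyba at 0.51, Ncf1 at 0.42 and Rac2 at 0.53. Leaving out WT no LPS replicate 1 ended all 3 of these calls, KD no LPS replicate 2 or WT no LPS replicate 2 that of Rac2, and any of 8 arrays that of Ncf1.

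Slc7a11 is also a target of ATF4, and the amino acid stress response was therefore counted. Of 11 tested genes, 1 rose and 3 fell at 1 h in each strain. Over all genes 3.62% rose and 2.97% fell in KD cells at that time, and 3.21% and 3.84% in WT cells. At 4 h, 4 rose in KD cells and 5 in WT cells, against 6.19% and 7.56% of all genes. From 1 h to 4 h, 5 rose in KD cells and 6 in WT cells, against 5.65% and 7.81% of all genes. Over that interval 0 fell in either strain, where 4.82% and 11.1% of all genes fell. Asns, asparagine synthetase, had 1201.1 and 1110.7 without LPS, 750.1 and 764.6 at 1 h and 1432.7 and 1558.8 at 4 h in KD cells. In WT cells it had 1128.4 and 1153.2, 700.9 and 760.5, and 1734.3 and 1725.4. Asns was thus lowest at 1 h and highest at 4 h in both strains, with called changes of -0.61 and 0.37 in KD cells and -0.64 and 0.60 in WT cells. Slc7a5, an amino acid transporter chain, had called changes of the same signs (-0.49 and 0.44 in KD cells, -0.72 and 0.47 in WT cells). Atf4 itself rose at both times in both strains by 0.38 to 0.60, but its probe set 1438992_x_at gave -0.22 at 1 h and -0.12 at 4 h in WT cells, neither of them called. Chac1, which degrades glutathione, rose at 4 h in WT cells by 1.41 (adjusted p = 0.000663). It was lower in KD cells at 4 h (-0.92, adjusted p = 0.0475), a call that held in 2 of 12 fits with 1 array left out. Atf3 was higher in KD cells without LPS (0.41, adjusted p = 0.0219), lost without either KD no LPS array or WT no LPS replicate 1. The KD calls of Slc7a5 against no LPS were each lost without any of the 4 arrays compared, as was the WT call of Atf4 at 1 h. Those lost without 1 of 2 arrays were Slc7a5 in WT cells at 4 h (WT no LPS replicate 2, WT 4 h replicate 2), Asns in KD cells at 4 h (KD no LPS replicate 2, KD 4 h replicate 2) and Atf4 in KD cells at 4 h (KD no LPS replicate 1, KD 4 h replicate 2), and Slc7a5 in WT cells at 1 h was lost without WT no LPS replicate 1.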

How the data were processed

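RNA from 12 macrophage cultures was measured on 12 Affymetrix arrays, 2 per group. The deposited values are MAS5 signal intensities on a linear scale, per the submitters' processing notes, whose version is not given in the sources used here; each array's 2% trimmed mean was 150. Such scaling removes any overall difference in RNA amount. Probe sets were named from the platform annotation: 34958 had 1 symbol, 932 several and 9211 none.

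Probe sets brighter than the median of the array on 2 or more arrays were tested. log2(signal + 4.4), the pseudocount being the 20th percentile of all values, was fitted in limma 3.58.1 (R 4.3.3) with a mean per group over all 12 arrays (6 residual degrees of freedom) and a variance prior following the signal. Benjamini-Hochberg adjustment ran over all 27931 probe sets within each of 11 comparisons. Each gene was read from 1 tested probe set, that of highest mean log2 signal, preferring names without _a_, _s_ or _x_. All member genes are described; from each pathway list, up to 4 called genes with the largest changes per comparison and those called between strains. The genes and lists were chosen with earlier results of these data known. The fit was tested on simulated data. Alternatives varied the pseudocount, filter, normalization, prior, arrays fitted, replicate block and probe set, and left out each array in turn; applying them to list genes was chosen after seeing the data. The number of arrays limits the precision.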

Additional observations from a re-analysis of the deposited data

Results flagged for a closer look

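The test of a strain difference in the LPS response called 4 genes of the pathway lists. It called none of the 9 antioxidant and NRF2 target genes. At 4 h the calls were 1 higher and 1 lower of 12 tested partners and regulators and 1 of 28 other antioxidant enzymes. The remaining lists, with 26, 7 and 11 tested genes, had 0 then, and 3.85% of all genes were called. At 1 h the call was 1 of 11 amino acid stress response genes and 0 in the other lists, against 0.418% of all genes. The KD response minus the WT response at 4 h was 0.81 ± 0.15 (log2, SE) for Bach1, adjusted p = 0.00565, -1.62 ± 0.43 for Maff, adjusted p = 0.0464, and 0.74 ± 0.17 for Txnip, adjusted p = 0.0235. At 1 h it was -0.78 ± 0.14 for Atf3, adjusted p = 0.0224. Atf3 had 2046.7 and 2067.4 without LPS and 1252 and 1149 at 1 h in KD cells, against 1411 and 1686 without LPS and 1458 and 1649.7 at 1 h in WT cells.

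With 1 array left out, these calls held in 10 of 12 fits for Bach1 (lost without KD 4 h replicate 1 or WT 4 h replicate 1) and in 3 of 12 for Maff (kept without KD no LPS replicate 2 or either WT 1 h array). Txnip kept its call in 7 of 12 (lost without KD no LPS replicate 2, KD 4 h replicate 1, either WT no LPS array or WT 4 h replicate 1), and so did Atf3 (lost without KD no LPS replicate 2, either KD 1 h array, WT no LPS replicate 1 or WT 1 h replicate 2). A second probe set of Bach1, 1449311_at, gave 0.87, adjusted p = 0.432, and one of Txnip, 1415997_at, gave 0.24, adjusted p = 0.84. With a variance prior that does not follow the signal, all 4 calls were lost, with adjusted p-values of 0.204 for Bach1, 0.285 for Maff, 0.295 for Txnip and 0.416 for Atf3. The Atf3 call was also lost in a fit of only the arrays compared (adjusted p = 0.0656), and the Maff call with quantile normalization (0.0547), no filter (0.0814), a pseudocount of 1 (0.0556) and the replicate block (0.0592).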

How the results depend on the processing

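Of the values of the 9 genes, 1141 with 1 array left out and 756 under other settings stayed on their side of the threshold, 34 and 22 lost their call, and 13 and 14 gained one. Of values that were not called, 19 changed sign with 1 array left out, 1 under another setting and 17 with another probe set. Called values changed sign in 4 cases, all with another probe set: for Nfe2l2, 1457117_at gave -0.36 in KD cells and -0.31 in WT cells from 1 h to 4 h; for Srxn1, 1425351_at gave -0.27 at 4 h in WT cells; for Sod2, 1417194_at gave 0.29 between strains at 1 h. Among list genes the same held for Txnrd3 (1423869_s_at, 0.084 at 1 h in KD cells), Sqstm1 (1450957_a_at, 0.54 from 1 h to 4 h in KD cells) and Atf4 (1438992_x_at, -0.22 at 1 h and -0.12 at 4 h in WT cells); of 146 called list values, 70 held in every fit with 1 array left out and 76 did not, and 56 were called with a variance prior that does not follow the signal.

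With a variance prior that does not follow the signal, the probe sets called were 506 at 1 h, 1326 at 4 h and 960 from 1 h to 4 h in KD cells, 487, 3150 and 2732 in WT cells, 69, 17 and 504 between strains without LPS, at 1 h and at 4 h, and 0 and 11 for the difference in response at 1 h and 4 h. Beside them, the usual fit called 1527, 2792, 2354, 1709, 4782, 4423, 1465, 309, 1500, 91 and 857. With that prior the member genes called were 2, 1 and 2 in KD cells, 2 at 1 h and 4 from 1 h to 4 h in WT cells, and 0 between strains at 1 h and 4 h. With only the arrays compared, 805 probe sets and 2 members were called in KD cells at 1 h, 677 probe sets between unstimulated strains, 39 for the difference in response at 1 h, and 1 member for that at 4 h. That last difference also had 1 member with the stricter filter, at the 75th percentile, and the 1 h difference had 156 probe sets with it, 52 with no filter and 143 with quantile normalization. With no filter, 1 member was called between strains at 4 h. The cause was not tested.

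Leaving out 1 array gave 818 to 1567 probe sets and 2 to 4 members in KD cells at 1 h, 1576 to 2873 and 3 to 4 at 4 h, and 1218 to 2633 and 2 to 6 from 1 h to 4 h. In WT cells it gave 739 to 1932 and 4 to 5, 2899 to 5058 and 4 to 6, and 2740 to 4724 and 5 to 7. Between strains it gave 271 to 1523 and 0 without LPS, 125 to 429 and 1 to 2 at 1 h, and 538 to 1696 and 1 to 3 at 4 h, and for the difference in response 15 to 242 at 1 h and 269 to 923 at 4 h, with 0 members. The lone array of a group is then assumed to vary like the other groups.

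Replicate numbers did not pair the samples: over 15 pairs of groups the correlation of replicate deviations was -0.0682 to 0.0401. The replicate block called 1462, 2665 and 2271 probe sets in KD cells, 1631, 4649 and 4285 in WT cells, 1362, 283 and 1418 between strains, and 119 and 767 for the differences in response, and added Gclc at 4 h in WT cells. Dim probe sets limit what can be read, since the pseudocount of 4.4 shrinks their changes.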
